A study of Mus musculus with 5 samples.

Results

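Lysosomal cathepsins and the secreted cysteine protease inhibitor cystatin C were followed in mouse macrophages exposed to lipopolysaccharide (LPS), a bacterial cell wall component. The 10 genes were chosen by symbol: Ctsa, Ctsb, Ctsc, Ctsd, Ctsh, Ctsk, Ctsl, Ctss, Ctsz and Cst3. All 10 were among the 13339 genes listed, and all 10 averaged 1 FPKM or more, as did 9795 genes in all. FPKM relates fragments to transcript length and library size, so levels of different genes can be set side by side per length. The cells were bone marrow-derived macrophages of 8-week-old C57BL/6 mice, with the title prefix WT2, cultured with the growth factor M-CSF for 5 days. The groups were 0 h (before LPS) and 4, 8, 12 and 24 h in LPS at 100 ng/ml, with 1 library each. Nothing in the labels gives the number of animals or cultures, and unstimulated cells kept for 4 to 24 h were not analysed here, so the hours in LPS and the hours in culture cannot be told apart.

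Cathepsins are proteases of the endolysosomal system. They are made as inactive proforms, carried to lysosomes mainly by mannose 6-phosphate receptors, and activated there by removal of the propeptide at acid pH. In macrophages they break down engulfed material, cut antigens and the invariant chain for MHC class II presentation, and process other proteases, and some are secreted. Cystatins are tight-binding inhibitors of the papain-like cysteine cathepsins and do not inhibit the aspartic protease cathepsin D.

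Of the 10 genes, 9 were lower at 4 h than at 0 h, and Ctsc alone was higher, by 8.78-fold. Among all genes with a mean of at least 1 FPKM, 72.3% were not higher at 4 h than at 0 h. After 4 h the genes took separate courses. At 24 h Ctsh and Ctsz were near their 0 h level, at 107% and 96.8% of it, and Ctsk was above its own, at 128%. Ctsl and Ctss were at 72.2% and 68.9% of theirs, and Ctsa, Ctsb, Ctsd and Cst3 were at 33.6% to 47.4%. At 0, 4, 8, 12 and 24 h, 4.70%, 2.48%, 2.15%, 2.27% and 2.55% of the summed FPKM belonged to the 9 cathepsins together.

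Since there was 1 library per time, no test was possible and each difference compares a pair of libraries. Steps between low values of short genes gave depths of about 18.8 to 19.25 M (mega) reads. At that depth the 95% counting error of a member's log2 difference was between 0.0069 and 0.22. Of the 80 differences computed, 77 were larger than their own counting error. The counting error leaves out the spread between cultures, which these libraries cannot give. Genes past a 2-fold difference of log2(FPKM + 1) were counted as higher or lower. The median gene was itself lower in LPS, with log2 differences of -0.70 (4 h) and -0.11 (24 h) against 0 h, and the shift moved with transcript length. The shortest-transcript 10% of genes had a median of -1.25 at 4 h and the longest-transcript 10% one of -0.06. Members' transcripts were 860 to 4743 nt long, so values with libraries centred on the median gene, or with the length trend removed, stand beside the main ones. Of the 80 differences, 65 kept their sign under centring and 61 without the length trend. Not all of the others are listed here. What part the length trend has in the members' values was not tested.

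The labels name macrophages, while a protocol field speaks of dendritic cells. The 9 macrophage markers summed to 2762 to 3312 FPKM in each library, with 0 of 9 below 1 FPKM. The 7 measured dendritic cell markers summed to at most 17.6 FPKM in LPS, against 3.73 FPKM at 0 h. Most of that sum in LPS was Ccr7, a chemokine receptor of migrating dendritic cells, which had 1.2, 4.82, 14.8, 11.5 and 9.13 FPKM at 0, 4, 8, 12 and 24 h and passed 2-fold as higher at every time in LPS. The lineage markers Flt3 and Zbtb46 were below 1 FPKM in every library. The part of such cells in the members' levels was not tested. The 8 stromal markers summed to 4.72 to 12.2 FPKM and the 4 measured lymphoid markers to at most 0.74 FPKM. The 8 measured neutrophil markers summed to 352, 327, 259, 186 and 74.1 FPKM at 0, 4, 8, 12 and 24 h. Lyz2, the lysozyme gene usually abundant in macrophages and named here after its values were seen, stood at only 19.1 to 37.5 FPKM, and reads shared with its close copy Lyz1 make that level uncertain. In bulk RNA, fewer cells of a type and less RNA per cell cannot be told apart.

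**Figure D1:**
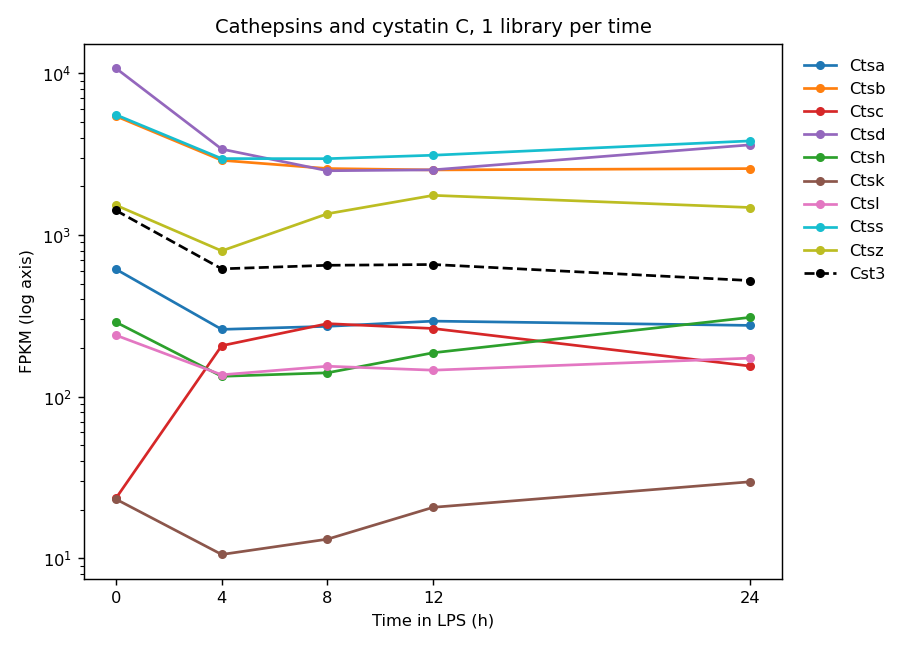
FPKM (log axis) of the 9 cathepsins (solid lines) and of Cst3 (dashed line) against time in LPS, 1 library per point and no error bars. Ctsc stands out by its steep difference, with 206 FPKM at 4 h against 23.5 FPKM at 0 h, while the other 9 lines are lower at 4 h than at 0 h. Among all genes with a mean of at least 1 FPKM, 72.3% were not higher at 4 h.

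Sequence before the start sites is shown for the genes at both ends of the response, Ctsd and Ctsc, for Ctsa and Ctsl, which with Ctsd held the core of the site bound by the lysosomal regulators TFEB and MITF, and for Ctss. RefSeq windows (GRCm38.p6, 250 bases before to 50 after a start) were matched by symbol for 8 of the 10 genes, with a pair of starts for Ctsa. The 250 bases before the start are printed 5′ to 3′ on the gene's strand, with capitals for matches on either strand to CACGTG (the core of the TFEB and MITF site) or to the interferon-stimulated response element.
Ctsd, chr7:142387828-142388077, minus strand: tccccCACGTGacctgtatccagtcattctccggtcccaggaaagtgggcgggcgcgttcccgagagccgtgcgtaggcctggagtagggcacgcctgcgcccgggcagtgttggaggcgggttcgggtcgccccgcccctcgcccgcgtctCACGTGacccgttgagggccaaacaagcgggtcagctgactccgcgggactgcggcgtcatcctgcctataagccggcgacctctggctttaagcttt
Ctsa, chr2:164833523-164833772, plus strand: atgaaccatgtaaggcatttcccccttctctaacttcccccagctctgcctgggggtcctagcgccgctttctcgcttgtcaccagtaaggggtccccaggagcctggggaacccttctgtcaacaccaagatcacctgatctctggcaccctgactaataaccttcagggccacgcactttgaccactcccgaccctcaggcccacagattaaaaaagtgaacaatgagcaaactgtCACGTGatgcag
Ctsl, chr13:64370521-64370770, minus strand: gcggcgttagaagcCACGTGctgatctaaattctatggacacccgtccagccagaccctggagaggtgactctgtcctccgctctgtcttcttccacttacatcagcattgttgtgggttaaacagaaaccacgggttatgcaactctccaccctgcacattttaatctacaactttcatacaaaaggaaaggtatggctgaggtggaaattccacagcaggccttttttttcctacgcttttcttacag
Ctss, chr3:95526536-95526785, plus strand: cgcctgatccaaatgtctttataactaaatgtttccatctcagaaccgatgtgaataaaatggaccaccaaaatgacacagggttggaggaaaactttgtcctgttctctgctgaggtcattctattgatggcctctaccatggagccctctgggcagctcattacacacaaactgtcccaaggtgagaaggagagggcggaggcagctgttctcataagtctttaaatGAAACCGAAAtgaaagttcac
Ctsc, chr7:88277835-88278084, plus strand: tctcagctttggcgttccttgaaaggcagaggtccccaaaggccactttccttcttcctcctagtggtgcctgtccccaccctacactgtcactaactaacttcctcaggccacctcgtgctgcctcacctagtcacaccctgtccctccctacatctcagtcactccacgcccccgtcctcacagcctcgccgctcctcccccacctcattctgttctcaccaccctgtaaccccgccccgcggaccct
CACGTG stood in the windows of 3 of the 8 genes, against 7.15% of the 32851 windows and 8.09% of the 27025 genes in the table. For Ctsa it was absent from the window at the first base of the gene's span, 164832872. The printed Ctsa window, which holds it, lies inside that span. Of the 3 genes, only Ctsd held CACGTG upstream of its gene span. In Ctsd CACGTG began 245 and 98 bases before the start on which the window is set. In Ctsl it began 236 and in Ctsa 12 bases before, with 1 more copy after the Ctsa start. The printed Ctsl stretch lies inside the gene's span, which reaches to 64370772, so its match is not upstream of the annotated gene. The printed Ctsc stretch runs to 88278084, past the first base of the gene's span at 88278024. The interferon-stimulated response element was in 1 of the 8, Ctss, beginning 21 bases before the start, against 3.44% of windows and 3.99% of genes. GGAAGT, a PU.1 core, was in 4 of the 8 (Ctsa, Ctsc, Ctsk and Ctss), against 23.8% of windows and 26.55% of genes. For Ctsa it too was only in the window inside the gene's span. The AP-1 letters TGANTCA and the NF-kappaB motif were in the windows of 0 of the 8 genes. Of all windows 7.81% and 0.41% held them, and of all genes 8.97% and 0.47%. No motif overlapped another in these windows. A match of letters is a description of sequence and shows no binding.

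Set against 0 h, the 4 h library gives the early response. Of the 10 genes, 5 were lower by 2-fold or more (Ctsa, Ctsd, Ctsh, Ctsk and Cst3) and 1 was higher by that much (Ctsc). Among all genes 38.1% were lower and 12.2% higher by this measure, so a count of 5 in 10 lies close to the background. The members' median difference was -1.002, against -0.70 for all genes. With libraries centred on the median gene 0 of the 10 passed 2-fold as lower, with Ctsd nearest at -0.96, and the split of all genes turned to 2108 higher and 1315 lower, against 1197 and 3729 as deposited. Removing the length trend likewise left 0 lower, and put Ctsl, Ctss and Ctsz at 0.03, 0.07 and 0.01, on the other side of 0. Ctsc stayed higher by 3.78 when centred and by 3.76 with the trend removed.

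The 24 h library, set against 0 h, gives the late state. Here 4 of the 10 were lower by 2-fold or more (Ctsa, Ctsb, Ctsd and Cst3), against 14.5% of all genes, and 1 was higher (Ctsc), against 11.3% of all genes. The members' median was -0.50, against -0.11 for all genes. The 4 lower members had differences between -1.57 and -1.08, and 5 lay within 2-fold. At 8 h 5 were lower, against 28.9% of all genes, and at 12 h 4, against 21.5%. The members higher at these times numbered 1 at 8 h and 1 at 12 h, against 12.0% and 12.3% of all genes. The share of higher genes among those past 2-fold moved with the scaling. It was 29.4% at 8 h as deposited and 54.7% when centred, 36.4% and 56.1% at 12 h, and 43.7% and 50.6% at 24 h, where removing the length trend gave 55.7%.

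**Figure D2:**
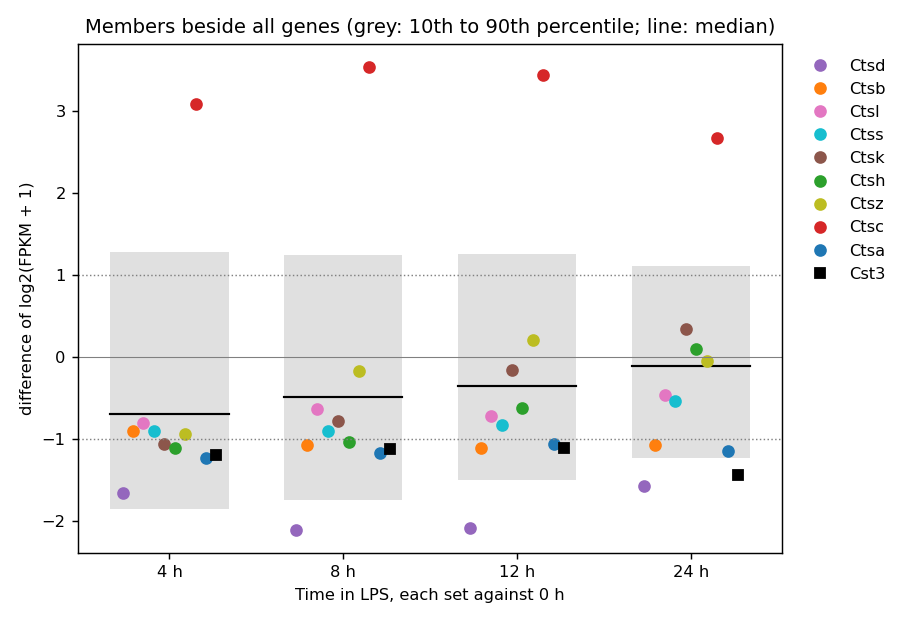
Difference of log2(FPKM + 1) of each member at 4, 8, 12 and 24 h against 0 h, with 1 point per gene (square for Cst3). Grey bands span the 10th to 90th percentile of 9795 genes, black lines mark their median and dotted lines a 2-fold difference. Ctsc lies above the band at every time, between 2.66 and 3.53, and Ctsd is the lowest member at every time.

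Ctsd (gene 13033; chromosome 7, 142375910 to 142387827, GRCm38) encodes cathepsin D, an aspartic endopeptidase and the most abundant cathepsin transcript at 0 h. It stood at 10737, 3395, 2494, 2527 and 3609 FPKM at 0, 4, 8, 12 and 24 h. The 0 h library was the highest by far, and the 8 h and 12 h libraries the lowest. At 8 h Ctsd was at 23.2% of its 0 h level, and its difference of -2.11 was lower than that of all but 5.7% of genes. It was at 33.6% of the 0 h level at 24 h. Among the members Ctsd alone kept a loss of at least 2-fold at 8 h and 12 h when libraries were centred (-1.62 and -1.73) and when the length trend was removed (-1.54 and -1.66). In rank among all genes it held places 5, 17 and 11 at 0, 8 and 24 h. Psap, which encodes prosaposin, a substrate of cathepsin D, had 11395, 5278, 4163, 4174 and 6173 FPKM at 0, 4, 8, 12 and 24 h.

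Ctsb (gene 13030; chromosome 14, 63122462 to 63145923), which encodes cathepsin B, an endopeptidase that also removes dipeptides from the carboxyl end, stood at 5427, 2894, 2574, 2524 and 2572 FPKM at 0, 4, 8, 12 and 24 h. The 0 h library was the highest, and the last 3 libraries differed little from each other. At 24 h it was at 47.4% of the 0 h level, with a difference of -1.08 as deposited and -0.97 when centred, where the 2-fold call was lost. Removing the length trend gave -1.18, where the call was kept.

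Ctss (gene 13040; chromosome 3, 95526786 to 95556405) encodes cathepsin S, which is active also at neutral pH and cuts the invariant chain in antigen-presenting cells. It stood at 5536, 2966, 2962, 3112 and 3816 FPKM at 0, 4, 8, 12 and 24 h. The 4 h and 8 h values differed by less than the counting error (log2 difference -0.0019, error 0.0147). The 24 h library was the highest of those in LPS, at 68.9% of 0 h. Relative to the median gene the direction between 24 h and 4 h turned, with 0.36 as deposited and -0.13 when centred, and it turned likewise for Ctsl (0.34 and -0.15), Ctsa (0.08 and -0.41) and Ctsd (0.09 and -0.40). Ctss and Ctsb stood side by side at 0 h and 4 h, with Ctss to Ctsb ratios of 1.02 and 1.025, and at 8, 12 and 24 h the ratio was 1.15, 1.23 and 1.48. With Ctsd they were the 3 most abundant members in every library, in the order Ctsd, Ctss, Ctsb at 0 h and 4 h and with Ctss first from 8 h on. Ctsd and Ctsb were next to each other in level at 8 h and 12 h, with Ctsd to Ctsb ratios of 0.969 and 1.001.

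Ctsl (gene 13039; chromosome 13, 64361890 to 64370772) encodes cathepsin L, an endopeptidase active in acid lysosomes. It stood at 239, 136, 154, 146 and 173 FPKM at 0, 4, 8, 12 and 24 h, the narrowest span of the 10 genes with 1.76-fold between its highest and lowest library. Its profile was closest to that of Ctss among the members: over the 5 libraries the root mean square difference of their centred log2 profiles was 0.09, and Ctss stood between 19.2 and 23.1 times above Ctsl throughout. At 24 h Ctsl differed from 0 h by -0.47.

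Ctsk (gene 13038; chromosome 3, 95499210 to 95509387) encodes cathepsin K, the collagen-degrading protease of osteoclasts, and lies 17398 bp from Ctss. It was the lowest member in every library, with 23.2, 10.5, 13.1, 20.6 and 29.7 FPKM at 0, 4, 8, 12 and 24 h. At 0 h its 95% counting interval, 21.4 to 25.0 FPKM, overlapped that of Ctsc, 22.1 to 24.9 FPKM. The Ctsk level was lowest at 4 h and was higher at each later time, and the 24 h library was the highest of the 5. At 24 h it was 2.82-fold above 4 h, and the call was lost once libraries were centred (0.92 against 1.41 as deposited). At 12 h it lay within its counting error of 0 h (-0.16, error 0.16), and was above 0 h by 0.19 when centred. The 8 measured osteoclast markers had a sum of 101 FPKM at 24 h, against 349 at 0 h. Of these, Atp6v0d2, a proton pump subunit, had 6.20 FPKM at 24 h and 286 at 0 h, the integrin gene Itgb3 had 3.77 and 15.3, Acp5, tartrate-resistant acid phosphatase, had 58.1 and 16.8, and Tnfrsf11a, the receptor RANK, had 22.3 and 13.6. Atp6v0d2 carried most of the sum at 0 h. The other 7 markers summed to 63.5, 126, 137, 125 and 94.7 FPKM at 0, 4, 8, 12 and 24 h, higher at every time in LPS than at 0 h. Most of this sum in LPS was Acp5, with 16.8, 89.0, 113, 101 and 58.1 FPKM at these times. Nfatc1 had 15.1, 5.67, 2.97, 5.07 and 9.22 FPKM and Itgb3 15.3, 8.93, 5.90, 5.68 and 3.77, each lower at every time in LPS. Tnfrsf11a had 13.6, 20.9, 14.25, 11.9 and 22.3 FPKM. The part of the osteoclast markers in the Ctsk level was not tested. Dcstamp and Ocstamp, which osteoclast precursors use to fuse, were at 0.11 and 0.33 FPKM at 24 h and at 1.13 and 0.06 FPKM at 0 h.

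Ctsc (gene 13032; chromosome 7, 88278024 to 88315861) encodes cathepsin C, or dipeptidyl peptidase I, which removes dipeptides from the amino end and activates the serine proteases of neutrophil, mast cell and cytotoxic granules. It stood at 23.5, 206, 283, 264 and 154 FPKM at 0, 4, 8, 12 and 24 h. Every library in LPS was far above the 0 h library. Counting error alone allowed 278 to 287 FPKM at 8 h, against 22.1 to 24.9 FPKM at 0 h (95% intervals). The 8 h value was 12.0-fold and the 24 h value 6.57-fold that of 0 h, and the 24 h library differed from the 12 h library by -0.77 on the log2 scale. In rank among all genes Ctsc was in place 274 at 8 h, against 2859 at 0 h. Of the 5 measured genes of the granule proteases listed as its clients, 0 had a mean of at least 1 FPKM: Prtn3 had 0.49 FPKM at 8 h, against 2.45 at 0 h, Ctsg had 0.43 and 1.29, and Gzmb had 0.75 FPKM at 8 h and was listed at 0 at 0 h. The neutrophil markers, whose sum is given above and was lower in every LPS library than at 0 h, included Ngp at 0.28 FPKM at 24 h and 35.1 at 0 h, S100a9 at 7.14 and 167 and Ltf at 0.16 and 11.5, while Mmp8 was at 15.3 and 13.0. The marker Ly6g had 3.71 FPKM at 24 h, against 0.12 at 0 h, the only one of the 8 past 2-fold as higher. In the 8 h library, the highest for Ctsc, Camp had 5.64 FPKM and S100a8 144, against 3.0 and 117 at 0 h. Ly6g had 0.53 FPKM at 8 h. Ngp, S100a9, Ltf, Mmp8 and Mpo were lower at 8 h than at 0 h. S100a8 and S100a9 carried most of the marker sum at 0 h. The part of the neutrophil markers in the Ctsc level was not tested.

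Ctsh (gene 13036; chromosome 9, 90054267 to 90076095) encodes cathepsin H, mainly an aminopeptidase. It stood at 289, 133, 140, 187 and 309 FPKM at 0, 4, 8, 12 and 24 h. The 4 h and 8 h libraries were low, and the 24 h library stood slightly above the 0 h library, at 107% of it. The 24 h value was 2.32-fold that of 4 h, and the difference was 1.21 as deposited and 0.72 when centred, where the 2-fold call was lost. Ctsh and Ctsk were the 2 members that passed 2-fold as higher in the comparison of 24 h with 4 h, against 25.0% of all genes, and 0 passed it as lower, against 8.21%. Of the genes past 2-fold between these libraries 75.3% were higher as deposited and 38.6% when centred.

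Ctsz (gene 64138; chromosome 2, 174427494 to 174439039) encodes cathepsin Z, also called cathepsin X, a carboxypeptidase that removes single residues. It had 1527, 797, 1352, 1757 and 1477 FPKM at 0, 4, 8, 12 and 24 h. The 4 h library alone was low, and the 12 h library was the highest. The step between 8 h and 4 h was 0.76, higher than for 89.3% of genes, though 0 of the 10 members reached 2-fold in either direction between adjacent times from 4 h on. Among all genes 5.23% were higher and 3.88% lower by that much at 8 h against 4 h, 2.58% and 0.939% at 12 h against 8 h, and 3.43% and 3.50% at 24 h against 12 h. Centring moved the higher share of these calls to 39.2%, 53.9% and 21.1%, against 57.4%, 73.3% and 49.5% as deposited. At 8 h Ctsz differed from 0 h by -0.18 as deposited, by 0.31 when centred and by 0.52 without the length trend. At 24 h it differed by -0.05 as deposited, by 0.06 when centred and by 0.35 with the length trend removed. Its share of the summed cathepsins was 6.25%, 7.38%, 13.2%, 16.2% and 11.9% at 0, 4, 8, 12 and 24 h.

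Ctsa (gene 19025; chromosome 2, 164832872 to 164841032) encodes cathepsin A, a serine carboxypeptidase that also protects the lysosomal enzymes neuraminidase 1 and beta-galactosidase in a complex. It stood at 613, 260, 272, 293 and 275 FPKM at 0, 4, 8, 12 and 24 h. The 4 libraries in LPS were alike, and all lay below the 0 h library, at 42.5% to 47.8% of it. Of its partners, Neu1 did not share the flat course, with 35.8, 8.33, 24.5, 41.2 and 31.1 FPKM at 0, 4, 8, 12 and 24 h. Glb1 had 57.5, 29.7, 26.9, 33.5 and 36.7 FPKM at the same times. Like Ctsa, it was below its 0 h level in every LPS library, at 46.8% to 63.8% of it. These partners are named for their complex with cathepsin A, after their values were seen.

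**Figure D3:**
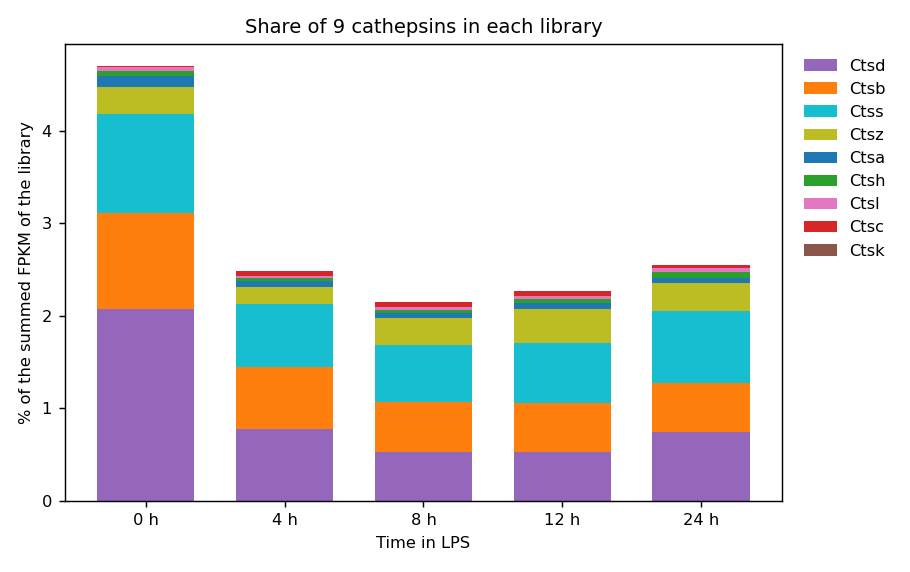
Share of the summed FPKM of each library taken by the 9 cathepsins, stacked by gene, with 1 bar per library and no error bars. The whole bar is between 2.15% and 2.55% in LPS, against 4.70% at 0 h, and the Ctsd segment is 24.4% of the bar at 8 h, against 44.0% at 0 h.

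In the summed FPKM of the 9 cathepsins, Ctsd held 44.0%, 31.4%, 24.4%, 23.3% and 29.1% at 0, 4, 8, 12 and 24 h. Ctss held 22.7%, 27.5%, 28.9%, 28.7% and 30.7% at these times. Ctsc held 2.76% at 8 h, against 0.10% at 0 h. The 9 cathepsins summed to 24415, 10799, 10244, 10829 and 12415 FPKM at 0, 4, 8, 12 and 24 h. Beside this, the acute-phase gene Saa3, named after its values were seen, took 8.42% of the summed FPKM at 24 h, against 0.47% at 4 h; its part in the other genes' FPKM was not tested.

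Cst3 (gene 13010; chromosome 2, 148871722 to 148875512) encodes cystatin C, the secreted inhibitor of cysteine cathepsins. It stood at 1417, 617, 649, 656 and 522 FPKM at 0, 4, 8, 12 and 24 h. The 0 h library was the highest and the 24 h library the lowest, at 36.8% of it. At 24 h its difference of -1.44 was lower than that of all but 7.3% of genes. Centring gave -1.33, and removing the length trend gave -0.77, where the 2-fold call was lost. Cst3 has the shortest transcript of the 10 genes, with 860 nt. The 7 cysteine cathepsins summed to 9.22, 11.6, 11.5, 12.2 and 16.3 times the Cst3 level at 0, 4, 8, 12 and 24 h.

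Of 28 other inhibitors listed, 10 were measured and 7 had a mean of at least 1 FPKM. Of these 7, 3 were higher and 1 lower by 2-fold at 4 h, against 12.2% and 38.1% of all genes. At 24 h 2 were higher and 1 lower, against 11.3% and 14.5%. Cst7, which encodes cystatin F, an inhibitor kept inside endolysosomes that acts on cathepsin C, had 1.33, 29.2, 113, 125 and 72.1 FPKM at 0, 4, 8, 12 and 24 h. Its highest values fell in the 8 h and 12 h libraries, as those of Ctsc did. At 0 h it rested on about 24 reads, with a 95% counting interval of 0.85 to 1.98 FPKM. The Ctsc to Cst7 ratio was 17.7, 7.06, 2.50, 2.10 and 2.14 at 0, 4, 8, 12 and 24 h. Cstb, which encodes stefin B, the cytosolic cystatin, had 771, 488, 657, 595 and 681 FPKM at 0, 4, 8, 12 and 24 h. Cst3, Cstb and Cst7 summed to 2189, 1134, 1418, 1376 and 1274 FPKM at 0, 4, 8, 12 and 24 h. The ratios of the 7 cysteine cathepsins to these 3 cystatins were 5.97, 6.30, 5.27, 5.82 and 6.69, lower at 8 h and 12 h and higher at 4 h and 24 h than at 0 h.

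Serpina3g, a serpin that inhibits cathepsins in the cytosol, had 0.69, 44.1, 37.0, 38.6 and 8.16 FPKM at 0, 4, 8, 12 and 24 h, and the related Serpina3f 0.08, 22.1, 6.59, 10.3 and 1.0 FPKM. They belong to a cluster of similar genes, so reads may be divided between copies. Serpinb6a, an intracellular serpin whose human counterpart inhibits cathepsin G, had 444, 156, 72.7, 33.3 and 61.6 FPKM at 0, 4, 8, 12 and 24 h. Ctla2a, which resembles a cathepsin propeptide, was level with 21.6, 21.1, 20.5, 20.6 and 19.9 FPKM, and its near copy Ctla2b had 12.6, 11.0, 8.06, 13.2 and 6.71 FPKM. Serpinb1a, Serpinb6b and Gm5483 had means below 1 FPKM.

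**Figure D4:**
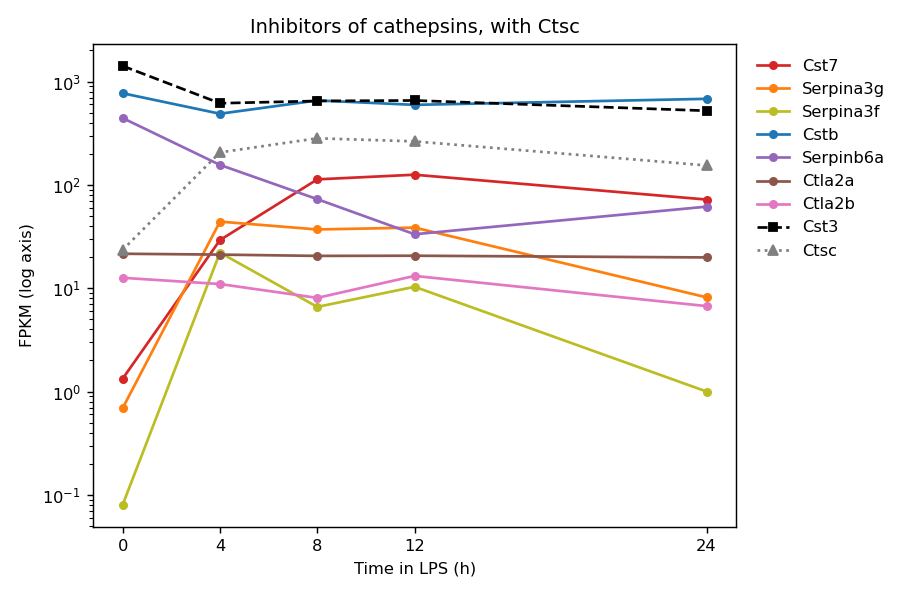
FPKM (log axis) of cathepsin inhibitors against time in LPS, 1 library per point and no error bars, with Ctsc (grey triangles) for comparison. Cst7 and Ctsc have their highest values at 8 h or 12 h, Serpina3g and Serpina3f at 4 h, and Cst3 (dashed) is highest at 0 h.

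Of 17 listed genes, other cathepsins, their relatives and legumain, 8 were measured and 3 had a mean of at least 1 FPKM. Lgmn, the asparagine-specific protease legumain that helps activate cathepsins, had 871, 458, 464, 450 and 730 FPKM at 0, 4, 8, 12 and 24 h, the last at 83.8% of 0 h. Ctso had 17.3, 9.86, 8.96, 9.09 and 12.8 FPKM at these times. Ctsf, a cysteine cathepsin, had 9.45, 3.61, 3.06, 2.65 and 1.36 FPKM and was the only 1 of the 3 lower by 2-fold at 24 h, with a difference of -2.15. Ctse, Ctsg, Ctsw, Cts8 and Tinagl1 were below 1 FPKM on average.

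Other lysosomal genes were counted by the same 2-fold measure. Of 37 other hydrolases, 21 were lower and 3 higher at 4 h, against 38.1% lower and 12.2% higher among all genes, and their median was -1.13, against -0.70 for all genes. At 24 h 12 were lower and 2 higher, against 14.5% and 11.3% of all genes, with a median of -0.57, against -0.11 for all genes. Pla2g15, a lysosomal phospholipase, had 24.3 FPKM at 24 h and 138 at 0 h, Hexa, a beta-hexosaminidase subunit, 199 and 1024, and Galc, galactosylceramidase, 13.6 and 72.2. Acp5 went the other way, with the values given above. Of 9 cofactors, substrates and membrane proteins, 4 were lower at 4 h and 2 at 24 h, near the 38.1% and 14.5% of all genes, and 0 were higher. Gm2a, the GM2 activator, had 72.7 FPKM at 24 h and 187 at 0 h, Cd68 had 824 and 1896, and the membrane protein gene Lamp2 had 381 and 298. Of 12 genes of sorting to lysosomes, 3 were lower and 0 higher at 24 h, against 14.5% and 11.3% of all genes, with a median of -0.11, that of all genes. The sorting receptor gene Sort1 had 1.47 FPKM at 24 h and 19.1 at 0 h, Gnptg, a subunit of the enzyme that makes the mannose 6-phosphate tag, 9.88 and 24.5, and the adaptor gene Gga2 6.93 and 16.1. M6pr, the cation-dependent mannose 6-phosphate receptor, had 308 FPKM at 24 h and 164 at 0 h.

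The transcription factors of the MiT family, regulators of lysosomal genes, went separate ways. Tfeb had 48.6, 1.32, 4.05, 9.31 and 11.0 FPKM at 0, 4, 8, 12 and 24 h. Tfe3 had 59.97, 23.4, 45.4, 46.6 and 59.7 FPKM, Mitf 18.0, 32.5, 21.7, 21.6 and 31.2, and Tfec 10.2, 76.2, 24.9, 10.8 and 8.62. The low point of Tfeb and Tfe3 and the high point of Mitf and Tfec were in the 4 h library. Mitf was nearly as high at 24 h as at 4 h.

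Class II antigen processing is the pathway in which cathepsin S cuts the invariant chain. Of 10 listed genes 8 had a mean of at least 1 FPKM, and 5 of these were lower by 2-fold at 24 h, against 14.5% of all genes, their median being -1.41, against -0.11. At 4 h 2 of the 8 were lower, against 38.1% of all genes, and the median of -0.68 was close to that of all genes, -0.70. Cd74, the invariant chain, had 856, 617, 814, 735 and 285 FPKM at 0, 4, 8, 12 and 24 h. H2-Aa had 53.2 FPKM at 24 h and 207 at 0 h, and H2-Eb1 20.95 and 87.6. In the same 24 h library Ctss was at 3816 FPKM, above its levels at 4, 8 and 12 h as deposited but not, against 4 h, when libraries were centred.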

How the data were processed

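Per the file headers, the authors deposited FPKM values, 1 column for each time. The tools Bowtie2 and RSEM and the build GRCm38 come from the submitters' processing notes. Their annotation is not given in the sources used here. RSEM-type estimates divide shared reads between gene copies. From the deposited FPKM, differences of log2(FPKM + 1) were computed with Python 3.11.15, pandas 2.3.3 and numpy 2.4.6 for 8 pairs of libraries, among genes with a mean of at least 1 FPKM. No test was possible with 1 library per time. Depth was estimated from genes of 1 transcript of 400 to 2500 nt (GENCODE M21), their length less 40 nt. Between 55.9% and 65.1% of 150 to 173 low values came out as whole reads (tolerance 0.04 reads, or 0.005 FPKM where that is wider), where 28.6% to 29.9% would by chance. Depths between 5 and 60 M were searched and the best match was kept. Intervals are 95% Poisson and cover counting error only. Transcript lengths are those of the shortest RefSeq-paired coding transcript, and the length trend was a lowess curve (statsmodels 0.14.6, span 0.3). Both the depth and the counting steps were tested on simulated data. The 10 genes and the lists were chosen with earlier results of these data known. Named are the 10 genes, all measured other cathepsins and inhibitors, of each other list the 3 largest differences at 24 h against 0 h and the largest opposite one among genes of at least 10 FPKM, the 4 MiT genes, and for each member the gene with the closest profile. Genes outside this rule, Lyz2, Neu1, Glb1, Saa3, Prtn3, Gzmb, Ccr7, Flt3, Zbtb46, Tnfrsf11a, Nfatc1, Ly6g, Camp, S100a8, Mpo, Dcstamp and Ocstamp, were named after their values were seen. Alternatives were pseudocounts of 0.1 and 5, centring on the median gene, the TPM scale, removal of the length trend, thresholds of 1.5-fold and 3-fold, and filters.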

Additional observations from a re-analysis of the deposited data

How the results depend on the processing

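There were no replicates, so no library could be left out within a time. No paired analysis was possible because each time point was 1 library. None of the 5 alternative scalings and pseudocounts turned the sign of a member that differed 2-fold, in any of the 8 comparisons. Calls of Ctsc as higher than 0 h held in every one of them, and all 80 signs were the same with pseudocounts of 0.1 and 5, against 65 with centring, 61 with the length trend removed and 73 on the TPM scale. Of the counts and medians recomputed, 176 stayed within 1.5 times (counts) or the counting error (medians), and the other 120 are given next. No filter changed the counts of genes by over 1.5 times when it was dropped. With libraries centred on the median gene, the members' median was -0.31, -0.48, -0.42 and -0.40 at 4, 8, 12 and 24 h against 0 h, -0.28 at 24 h against 4 h, -0.0788 at 8 h against 4 h, -0.0756 at 12 h against 8 h and -0.0834 at 24 h against 12 h. Lower members numbered 0, 1 and 1 at 4, 8 and 12 h against 0 h. Higher members numbered 0 at 24 h against 4 h. Lower genes numbered 1315, 1462 and 1264 at 4, 8 and 12 h against 0 h, 1503 at 24 h against 4 h and 555 at 24 h against 12 h. Higher genes numbered 2108 at 4 h against 0 h, 945 at 24 h against 4 h, 339 at 8 h against 4 h, 158 at 12 h against 8 h and 148 at 24 h against 12 h. With the length trend removed, the members' median was -0.0897, -0.18, -0.22 and -0.16 at 4, 8, 12 and 24 h against 0 h, -0.31 at 24 h against 4 h, -0.14 at 8 h against 4 h, -0.0216 at 12 h against 8 h and -0.0828 at 24 h against 12 h. Lower members numbered 0, 1 and 1 at 4, 8 and 12 h against 0 h. Higher members numbered 0 at 24 h against 4 h. Lower genes numbered 1167, 1210, 988 and 937 at 4, 8, 12 and 24 h against 0 h and 1411 at 24 h against 4 h. Higher genes numbered 1876 at 4 h against 0 h, 933 at 24 h against 4 h, 324 at 8 h against 4 h, 146 at 12 h against 8 h and 156 at 24 h against 12 h. On the TPM scale, the members' median was -0.77, -0.84, -0.65 and -0.41 at 4, 8, 12 and 24 h against 0 h, 0.0516 at 24 h against 4 h and -0.0571 at 8 h against 4 h. Lower members numbered 1, 3 and 1 at 4, 8 and 12 h against 0 h. Lower genes numbered 600 at 8 h against 4 h. Higher genes numbered 384 at 12 h against 8 h. With a pseudocount of 0.1, lower genes numbered 140 at 12 h against 8 h. Higher genes numbered 1021 at 8 h against 4 h, 598 at 12 h against 8 h and 635 at 24 h against 12 h. With a pseudocount of 5, the members' median was -0.92 at 4 h against 0 h. Lower genes numbered 1976, 1537, 1188 and 841 at 4, 8, 12 and 24 h against 0 h, 194 at 8 h against 4 h, 51 at 12 h against 8 h and 199 at 24 h against 12 h. Higher genes numbered 715 at 24 h against 0 h, 839 at 24 h against 4 h, 200 at 8 h against 4 h, 75 at 12 h against 8 h and 97 at 24 h against 12 h. At a threshold of 1.5-fold, lower members numbered 9, 8 and 7 at 4, 8 and 12 h against 0 h and 1 at 24 h against 12 h. Higher members numbered 1 at 8 h against 4 h, 1 at 12 h against 8 h and 1 at 24 h against 12 h. Lower genes numbered 4449, 3790 and 2641 at 8, 12 and 24 h against 0 h, 1367 at 24 h against 4 h, 1010 at 8 h against 4 h, 350 at 12 h against 8 h and 846 at 24 h against 12 h. Higher genes numbered 1865 at 24 h against 0 h, 4387 at 24 h against 4 h, 1749 at 8 h against 4 h, 1146 at 12 h against 8 h and 1601 at 24 h against 12 h. At a threshold of 3-fold, lower members numbered 1, 1, 1 and 0 at 4, 8, 12 and 24 h against 0 h. Higher members numbered 0 at 24 h against 4 h. Lower genes numbered 1594, 1259, 856 and 571 at 4, 8, 12 and 24 h against 0 h, 365 at 24 h against 4 h, 111 at 8 h against 4 h, 11 at 12 h against 8 h and 105 at 24 h against 12 h. Higher genes numbered 781, 746, 745 and 626 at 4, 8, 12 and 24 h against 0 h, 787 at 24 h against 4 h, 95 at 8 h against 4 h, 40 at 12 h against 8 h and 52 at 24 h against 12 h. With a filter at a mean of 10 FPKM, lower genes numbered 1598, 1198, 997 and 769 at 4, 8, 12 and 24 h against 0 h and 223 at 8 h against 4 h. Higher genes numbered 919 at 24 h against 4 h, 139 at 12 h against 8 h and 151 at 24 h against 12 h. Depth limits the least abundant member, Ctsk, and Cst7 at 0 h, and the spread between cultures is unknown.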

Other observations

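Genes whose course was closest to that of each member were found among 4907 genes with a mean of at least 10 FPKM, by the root mean square difference of log2 profiles, each centred on its own mean, over the 5 libraries. These are descriptions of 5 points and say nothing of shared function. Closest to Ctsc was Oas2, an interferon-induced antiviral enzyme, with 12.5, 109, 142, 133 and 85.7 FPKM at 0, 4, 8, 12 and 24 h and a difference of 0.06. Oas2 was also the only gene within 0.1 of Ctsc, whereas 67 genes lay within 0.1 of Ctsl and 41 of Ctss. Closest to Ctsd was Sod1, cytosolic superoxide dismutase, with 283, 91.8, 72.8, 66.9 and 102 FPKM (0.06). Cst3 was closest to H2-DMa, a chaperone of class II peptide loading, with 27.4, 11.1, 12.0, 12.2 and 10.1 FPKM (0.04), and Ctsk to Ranbp9, with 20.0, 10.1, 12.4, 19.3 and 27.7 FPKM (0.05). The closest genes to the other members were Dohh for Ctsa (0.01), Wls for Ctsb (0.05), Septin8 for Ctsh (0.08), Sdhc for Ctsl (0.03), Itfg1 for Ctss (0.04) and Tesk1 for Ctsz (0.06).

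Among the members, Ctsl and Ctss were the closest pair (0.09), followed by Ctsa and Cst3 (0.12), Ctsa and Ctsb (0.13), Ctsb and Cst3 (0.15) and Ctsh and Ctsk (0.17). The member nearest to Ctsc was Ctsz, at 1.44.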
